A study of Bos taurus with 27 samples.

Results

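The 18 bovine blastocyst pools described here were the 9 with the highest and the 9 with the lowest summed signal of 3 hypoblast markers, GATA4, SOX17 and PDGFRA, out of 27 pools in all. Abundance is given as CPM, in which each pool's counts on genes are scaled to sum to 1e6, and the marker score of a pool was the mean of log2(CPM + 1) over the 3 genes. The 9 pools of highest score are called high pools, the 9 of lowest score low pools, and the 9 between them, which entered no test, middle pools. Because the pools were chosen by these values, the markers are described below without a test, and a p-value for any other gene concerns its association with the marker score across pools, not a treatment.

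Each pool held RNA of 2 in vitro produced Bos taurus blastocysts, scored 7 for stage and 1 for quality. All came from oocytes matured in vitro with preovulatory follicular fluid, from follicles of greater or lesser maturity, and then handled alike through fertilization and culture. The labels do not give the maturity category or the production replicate of each pool, so either could differ between high and low pools and neither was modelled. Both embryos of a pool shared a category and replicate, and pools of 1 replicate share oocytes, semen and culture, so p-values measure the spread between these pools.

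The blastocyst holds an outer trophectoderm, which forms placenta, and an inner cell mass that separates into epiblast, the source of the fetus, and hypoblast, the source of the yolk sac endoderm. In the inner cell mass, FGF4 from epiblast cells acts through FGF receptors and ERK to favour hypoblast, in which GATA6 acts early and GATA4 and SOX17 follow, while NANOG and SOX2 mark epiblast. PDGFRA, a receptor for platelet-derived growth factor A, is carried by hypoblast cells and their precursors, and hypoblast cells later deposit a basement membrane of laminin, collagen IV and nidogen. In RNA of whole blastocysts, fewer cells of a type and less RNA per cell cannot be told apart.

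The pools had between 10517606 and 44253564 counts on genes, with a median of 22293594. High pools had 11482479 to 31126142 counts, with a median of 29454142, and low pools 13948854 to 44253564, with a median of 20557719. Their means did not differ beyond the spread between pools (difference, high minus low, of -464499; two-sided exact permutation test, p = 0.923, n = 9 each), but the median was higher in high pools. Between 15491 and 18266 genes were detected in high pools and between 16712 and 18959 in low pools. No pair of pools among the 351 possible pairs agreed within counting error, so each was kept as a separate sample.

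PDGFRA (chr6:69723776-69771549, ARS-UCD2.0) set most of the score, since it was read with 255 to 1615 counts per pool and accounted for 56.4% of the variance of the score. In the high pools, taken from the highest score to the lowest, PDGFRA was at 58.2, 45.4, 34.6, 43.8, 54.8, 45.3, 44.4, 51.5 and 39.2 CPM. In the low pools, again from the highest score to the lowest, it was at 48.1, 23.9, 31.2, 29.0, 38.2, 26.9, 25.8, 28.2 and 15.6 CPM. The groups overlapped even in this gene, with 2 low pools above the lowest high pool and 6 high pools below the highest low pool. Mean PDGFRA was 46.4 ± 7.41 CPM in high pools and 29.7 ± 9.16 CPM in low pools (SD, n = 9 each), a ratio of 1.56.

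GATA4 (chr8:7642415-7721284), a zinc finger transcription factor of the hypoblast and later of endoderm and heart, was read with only 2 to 49 counts per pool. Its abundance ran from 0.803 to 1.66 CPM in high pools, with a median of 1.34 CPM. In low pools it ran from 0.143 to 1.31 CPM, with a median of 0.731 CPM. High pools were mostly the upper ones, but 2 low pools lay above the lowest high pool. GATA4 accounted for 31.3% of the variance of the score.

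SOX17 (chr14:22229926-22231726), an HMG box transcription factor needed for endoderm, was close to absent from these libraries. It had no count in 14 of the 27 pools, of which 2 were high, 6 middle and 6 low, and a count of 0 allows up to 0.0687 to 0.285 CPM at the depth of those pools (3 counts; counting error only). At least 3 counts were found in 6 pools, 4 high, 1 middle and 1 low. The highest SOX17 value of the series, 0.756 CPM from 12 counts, was in a middle pool, number 35, in which PDGFRA was at 17.3 CPM, the lowest of the middle pools. SOX17 accounted for 12.3% of the variance of the score.

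**Figure D1:**
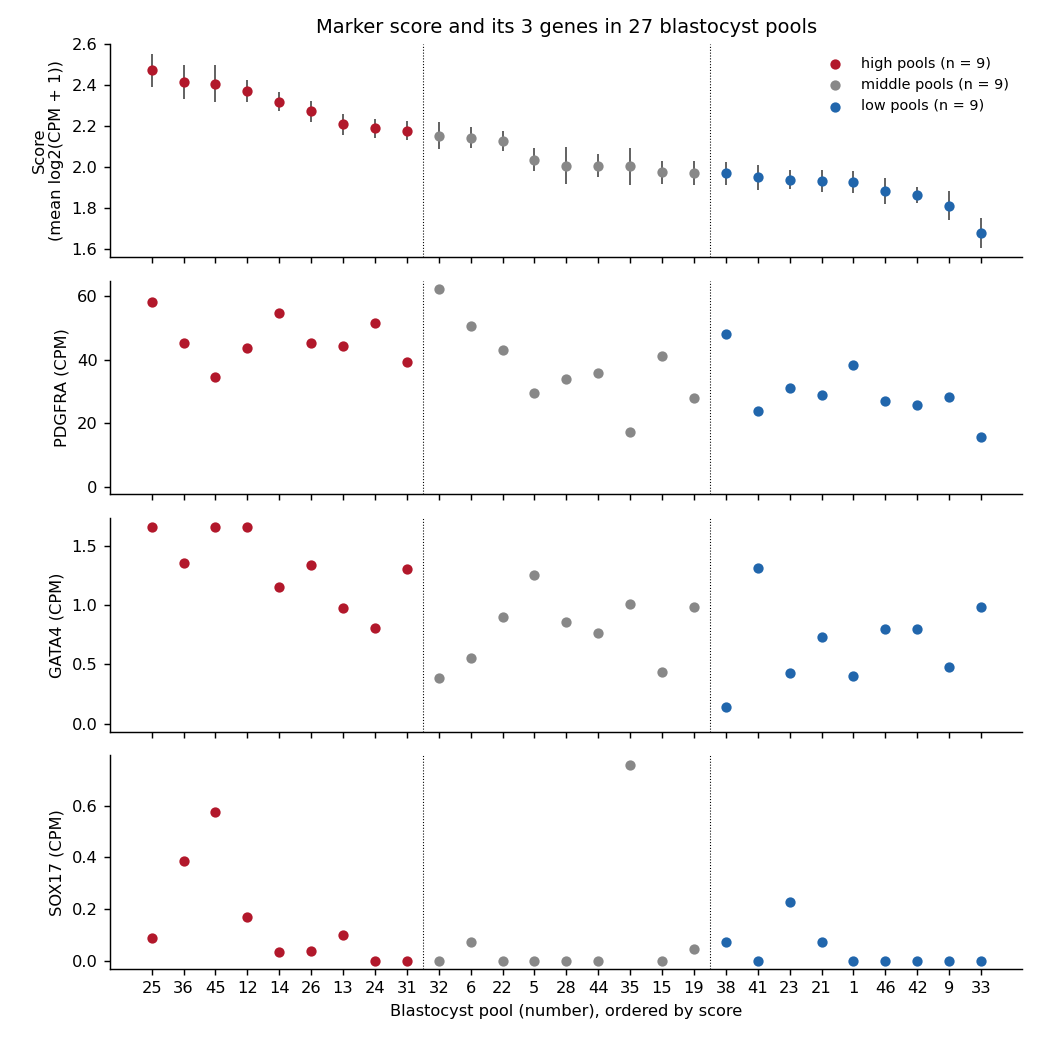
The 27 pools ordered by marker score along the x axis, with the score (bars are 1 counting SD) and the CPM of PDGFRA, GATA4 and SOX17 on the y axes; dotted lines are the limits of the high, middle and low groups. The score falls without a break at either limit, PDGFRA and GATA4 overlap between groups, and SOX17 is at 0 in 14 pools.

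The scores formed a continuous series from 2.47 to 1.68. Just inside the upper limit pool 31 scored 2.18 and just outside it pool 32 scored 2.15, a gap of 0.0242. At the lower limit, the scores of middle pool 19 and low pool 38 were 0.000806 apart. The error of a score from counting alone had an SD of 0.0402 to 0.0907, which is larger than both gaps, so the pools next to each limit could not be placed on either side of it at this depth.

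The 3 markers did not rank the pools alike. Over the 27 pools, Spearman's rho was -0.01 between GATA4 and PDGFRA, 0.345 between GATA4 and SOX17 and 0.176 between SOX17 and PDGFRA, given as a description because the values share each library's depth. Pool 32 shows the disagreement, with the highest PDGFRA of the series at 62.5 CPM beside GATA4 at 0.388 CPM, and pool 38, placed in the low group, had 48.1 CPM of PDGFRA beside 2 counts of GATA4.

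Each marker was therefore also compared between 9 high and 9 low pools that had been chosen by the other pair of markers. GATA4 in pools chosen by SOX17 and PDGFRA had a log2 fold change of 0.15 ± 0.41 (SE; 95% interval -0.66 to 0.97; adjusted p = 0.936). PDGFRA in pools chosen by GATA4 and SOX17 had a log2 fold change of -0.07 ± 0.21 (95% interval -0.48 to 0.34; adjusted p = 0.991). SOX17 in pools chosen by GATA4 and PDGFRA had 0.27 ± 1.01 (95% interval -1.71 to 2.25; adjusted p = 0.973), an interval too wide to be informative. None of the 3 passed the test, and the interval for PDGFRA, the best read of them, reached no further than 0.34 on the higher side. Its pools, however, were ranked by GATA4 and SOX17, with medians of 20 and 0 counts per pool, so counting error entered the ranking. The interval therefore does not limit how far the markers vary together. These p-values are from edgeR's quasi-likelihood test, adjusted over 12310 genes by Benjamini-Hochberg.

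The label of these pools as hypoblast marker high and low was set beside GATA6, an early factor of the lineage, which the score did not use. GATA6 (chr24:34161968-34194339) ran from 98.6 to 301 CPM in high pools, with a median of 211 CPM. In low pools it ran from 19.5 to 299 CPM, with a median of 233 CPM. The ranges overlapped almost wholly, and the log2 fold change of 0.00 ± 0.29 (SE; edgeR adjusted p = 1.00) became -0.16 without low pool 9, the one pool at 19.5 CPM. GATA6 thus did not follow the score. Its median over the 27 pools was 211 CPM, beside 0.896 CPM for GATA4. RNA of whole blastocysts does not show which cells the GATA6 reads came from. Whether the groups differ in hypoblast was therefore not tested by this gene, and the pools are called by their marker score.

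For all other genes, the question was whether transcripts move with the marker score from pool to pool. Of 12309 genes with at least 1 CPM in 12 pools, edgeR called 0 higher and 0 lower in high pools at an adjusted p of 0.05 or less, which is 0% in each direction, and the smallest adjusted p was 0.433. At an unadjusted p up to 0.05 there were 833 genes, 6.77% of those tested, of which 398 (3.23%) were higher and 435 (3.53%) were lower. Limma on log2(CPM + 1) also called 0 genes, with 937 at an unadjusted p up to 0.05. DESeq2 called 1 gene, ABHD4, and had 921 at that unadjusted level. The median log2 fold change over all genes was -0.00, and 97.7% of genes lay between -1 and 1. The median SE of a log2 fold change was 0.180 for genes with a mean of at least 5 CPM and 0.467 for the 3383 genes below it, so that changes of weakly read genes could be seen only where they were large.

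**Figure D2:**
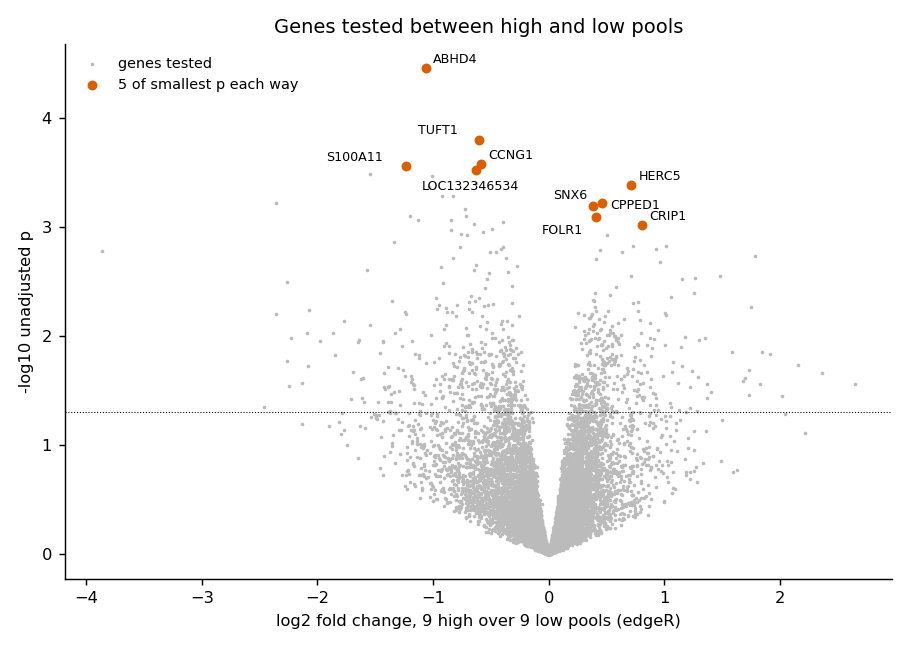
Each grey point is 1 of 12309 genes, with its log2 fold change between 9 high and 9 low pools on the x axis and -log10 of the unadjusted edgeR p on the y axis; orange points are the 5 genes of smallest p in each direction and the dotted line is an unadjusted p of 0.05. The cloud is nearly even about 0, and none of the named genes passed adjustment, ABHD4 being nearest at 0.433.

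The 5 genes of smallest p on the higher side, none of which passed adjustment, were HERC5, CPPED1, SNX6, FOLR1 and CRIP1, each with an edgeR adjusted p of 0.490. HERC5, a ligase that attaches the interferon-induced modifier ISG15 to proteins, was at 19.4 to 40.7 CPM in high pools and 14.4 to 26.0 CPM in low pools, with medians of 33.5 and 18.4 CPM. FOLR1, the folate receptor alpha, ran from 1194 to 1807 CPM in high pools and from 867 to 1435 CPM in low pools. SNX6, a sorting nexin that works with retromer in endosomes, had medians of 340.0 and 290 CPM, and 8 of 9 high pools lay above all low pools. CPPED1, a phosphatase, had medians of 188 and 130 CPM. CRIP1, a small LIM domain protein, had the widest spread, from 299 to 1302 CPM in high pools against 355 to 641 CPM in low pools. Their log2 fold changes were 0.72 ± 0.17 for HERC5, 0.41 ± 0.10 for FOLR1, 0.38 ± 0.10 for SNX6, 0.46 ± 0.11 for CPPED1 and 0.81 ± 0.21 for CRIP1.

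On the lower side these were ABHD4, described further below, and TUFT1, CCNG1, S100A11 and the uncharacterised LOC132346534, the last 4 with an edgeR adjusted p of 0.490. CCNG1, cyclin G1, a transcriptional target of p53, ran from 191 to 462 CPM in high pools and from 391 to 668 CPM in low pools. S100A11, a calcium-binding protein, ran from 23.3 to 120 CPM in high pools and from 105 to 357 CPM in low pools, with medians of 90.9 and 152 CPM. TUFT1, tuftelin, had medians of 52.1 and 80.3 CPM. In each of these 4 genes all 9 high pools were below the median of the low pools. The log2 fold changes were -0.58 ± 0.13 for CCNG1, -1.23 ± 0.28 for S100A11, -0.60 ± 0.13 for TUFT1 and -0.63 ± 0.15 for LOC132346534.

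Only 1 gene, TRIM7, had ranges that did not overlap, 0.00812% of the genes tested, and none did so on the lower side. TRIM7, a ubiquitin ligase, was at 3.97 to 7.43 CPM in high pools and 0.0731 to 3.79 CPM in low pools, and its log2 fold change of 1.26 ± 0.39 did not pass adjustment (edgeR adjusted p = 0.691).

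The middle pools, which the contrast did not use, were used to see whether the same genes followed the score there. Of the 833 genes at an unadjusted p up to 0.05, 458 (55.0%) had a Spearman correlation with the score in the middle pools of the same sign as their fold change, against 49.3% of all genes tested. The middle scores spanned only 0.183, so little of the score's range was available to them.

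Gene lists of the lineages, signalling pathways and other cell types were then read for their members. No member of any list passed adjustment in either direction, so members are given by their values and by how many reached an unadjusted p up to 0.05, to be read against 3.23% of all genes on the higher and 3.53% on the lower side. Members named because of that p were chosen after their values were seen.

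Among 18 transcription factors of hypoblast and endoderm, 9 were abundant enough to test. SOX7, FOXA1, FOXA2 and LHX1, which act in definitive or visceral endoderm, had a median of 0 CPM over the 27 pools. HNF4A, a nuclear receptor of visceral endoderm and liver, was the 1 member at an unadjusted p up to 0.05. It ran from 14.0 to 69.2 CPM in high pools, with a median of 38.5 CPM, and from 4.13 to 35.2 CPM in low pools, with a median of 18.6 CPM. Its log2 fold change was 1.01 ± 0.33 (edgeR adjusted p = 0.691), with 5 high pools above all low pools. No other member reached that p, and of the 9 log2 fold changes 5 were above 0 and 4 below. In high and low pools, medians were 292 and 247 CPM for KLF5 and 78.1 and 76.6 CPM for OTX2. For RARB they were 6.86 and 17.3 CPM, and for HHEX 3.12 and 5.76 CPM. PRDM1 had the lowest log2 fold change of the list, -1.20 ± 0.62, and the median over the 9 members was 0.12, beside -0.00 over all genes.

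Basement membrane genes, the main secreted product of hypoblast, lay on both sides. Of 22 tested, 4 were higher and 2 lower at an unadjusted p up to 0.05, with a median log2 fold change of 0.17. The nidogens, which link laminin to collagen IV, had fold changes of opposite sign. NID1 had medians of 50.2 CPM in high and 22.3 CPM in low pools and a log2 fold change of 0.95 ± 0.33. NID2 had medians of 89.4 and 110 CPM and a log2 fold change of -0.59 ± 0.26. The laminin chain LAMB1 was at -0.52 ± 0.19, and the collagen COL18A1, with medians of 4.96 and 1.59 CPM, at 1.75 ± 0.57, a value that became 1.27 without high pool 31. Among the members of highest CPM, fibronectin FN1 had medians of 812 and 686 CPM and SPARC of 358 and 309 CPM, with log2 fold changes of 0.31 ± 0.18 and 0.06 ± 0.15. The remaining members of low p were the collagen-modifying subunit P4HB, at 0.32 ± 0.15, and agrin, AGRN, at 0.51 ± 0.24.

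Genes of endocytosis and lipoprotein secretion, the work of visceral endoderm, were unevenly represented. Of 26, 12 had a median of 0 CPM over the 27 pools, among them APOB, APOA2, APOA4, AFP, TTR, TF and the cobalamin receptor gene CUBN, and 11 could be tested. The endocytic adaptor DAB2 was read in every pool, at 737 to 1152 CPM in high pools and 610 to 1271 CPM in low pools. The multiligand receptor LRP2 ran from 82.8 to 366 CPM in high pools and from 127 to 250 CPM in low pools. The protease CTSZ was the 1 member of low p, with medians of 92.4 and 69.5 CPM and a log2 fold change of 0.65 ± 0.27. APOA1, the chief apolipoprotein of high density lipoprotein, had a log2 fold change of -0.01 ± 0.31. FABP3 and CTSL, with DAB2 the members of highest CPM, were at 0.21 ± 0.18 and -0.21 ± 0.18.

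**Figure D3:**
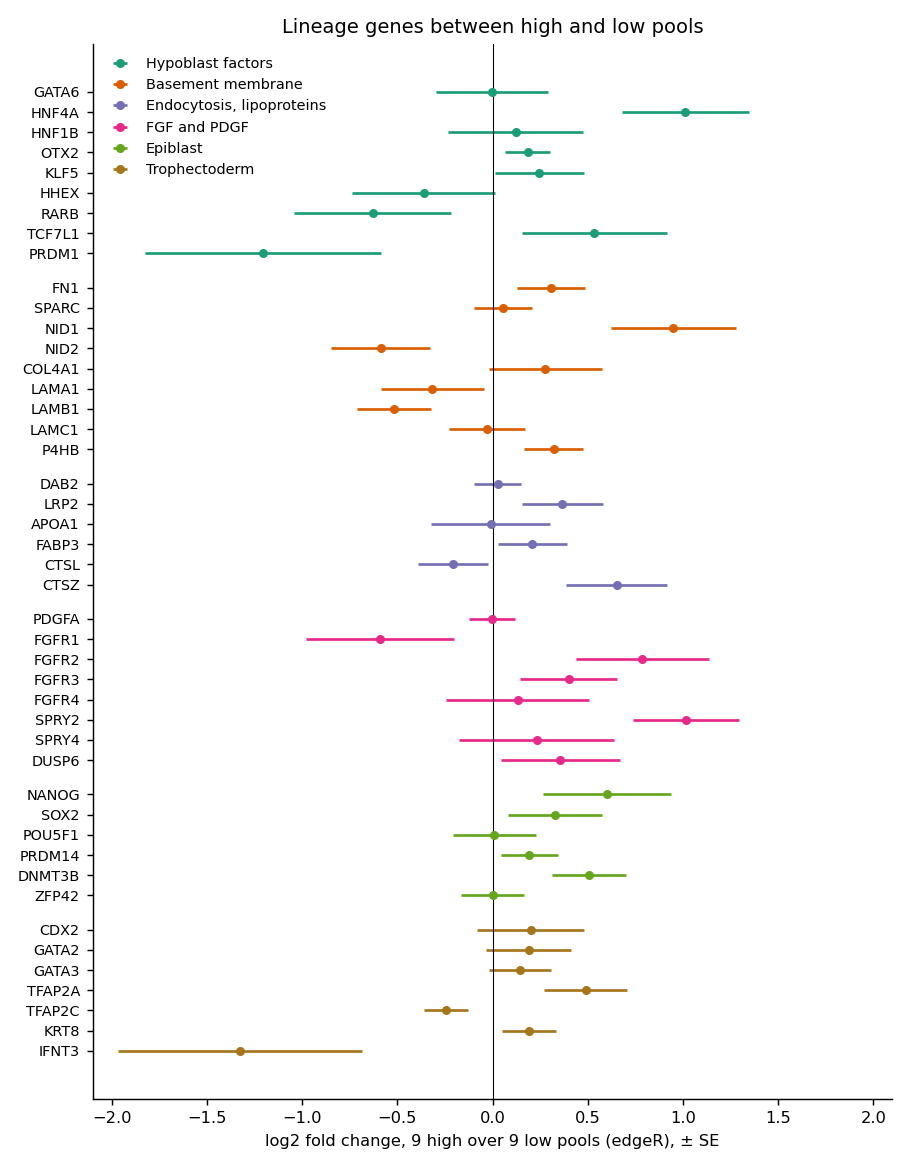
Log2 fold change between 9 high and 9 low pools (points, x axis; bars are 1 SE) for lineage and signalling genes, coloured by list; values right of 0 were higher in high pools. Points of most lists fall on both sides of 0. The epiblast genes NANOG, SOX2, POU5F1, DNMT3B and ZFP42 lie at or right of 0. Not all 14 tested epiblast members are shown, and 3 of the 14 were below 0. GATA6 sits at 0.00 and HNF4A at 1.01, and no gene shown passed adjustment.

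The ligand of PDGFRA, PDGFA, is made by trophectoderm and epiblast and did not follow the marker score. Its relation to PDGFRA alone was not tested. PDGFA ran from 32.5 to 46.6 CPM in high pools and from 32.6 to 48.3 CPM in low pools, a log2 fold change of -0.00 ± 0.12. The kindred receptor KIT was at 0.13 ± 0.18 and PDGFB at -0.56 ± 0.43, and of 8 genes in the list these 3 were tested, with none at an unadjusted p up to 0.05.

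In the FGF pathway, 17 of 27 genes were tested, with 2 higher and 0 lower at an unadjusted p up to 0.05 and a median log2 fold change of 0.04. FGF4, the epiblast ligand, had a median of 0 CPM in both groups and reached 0.871 CPM in high pool 25, too little to test. Among the receptors, FGFR2 had medians of 4.02 and 3.31 CPM and a log2 fold change of 0.79 ± 0.35 (edgeR adjusted p = 0.712), FGFR1 was at -0.59 ± 0.39 and FGFR3 at 0.40 ± 0.26. SPRY2, an inhibitor that FGF signalling induces against itself, had the largest fold change of the list. It ran from 10.9 to 38.2 CPM in high pools, with a median of 24.9 CPM, and from 7.92 to 23.3 CPM in low pools, with a median of 9.99 CPM. All 9 high pools were above the low median, and the log2 fold change was 1.01 ± 0.28 (edgeR adjusted p = 0.499). Other feedback targets were closer to 0, at 0.23 ± 0.41 for SPRY4 and 0.36 ± 0.31 for the ERK phosphatase DUSP6.

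Nodal, activin and BMP genes had 1 member higher and 1 lower at an unadjusted p up to 0.05 among 24 tested. CRIPTO, the Nodal co-receptor, had medians of 6.97 and 1.10 CPM and a log2 fold change of 1.68 ± 0.70, with 1 high pool at 0. SMAD5, which carries BMP signals, had medians of 5.35 and 8.75 CPM and a log2 fold change of -0.92 ± 0.23 (edgeR adjusted p = 0.490). SMAD4 and SMAD2 were at 0.02 ± 0.17 and -0.04 ± 0.13, and the list median was 0.06.

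Epiblast genes were present in both groups. NANOG ran from 47.9 to 133 CPM in high pools and from 15.5 to 124 CPM in low pools, with medians of 70.7 and 48.0 CPM and a log2 fold change of 0.60 ± 0.34 (edgeR adjusted p = 0.759). SOX2 had medians of 6.86 and 6.82 CPM, and POU5F1, which bovine trophectoderm also carries, of 392 and 303 CPM, with log2 fold changes of 0.33 ± 0.25 and 0.01 ± 0.22. The de novo DNA methyltransferase DNMT3B was the 1 of 14 tested members at an unadjusted p up to 0.05, with medians of 63.5 and 36.0 CPM and a log2 fold change of 0.51 ± 0.19. ZFP42 was at 0.00 ± 0.16 and DPPA3 at -0.07 ± 0.17. Of the 14 tested members, 11 had log2 fold changes above 0 and 3 below, and the list median was 0.11.

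Trophectoderm makes up most cells of a blastocyst, and its genes lay on both sides. The keratin gene KRT8 ran from 10633 to 26270.0 CPM in high pools and from 15679 to 21092 CPM in low pools, a log2 fold change of 0.19 ± 0.14. The factors CDX2 and GATA3 were at 0.20 ± 0.28 and 0.14 ± 0.16, and of 27 tested members 3 were higher and 2 lower at an unadjusted p up to 0.05. The higher ones were HAND1, TFAP2A and KRT7, with HAND1, a trophoblast and heart factor, at medians of 1.61 and 0.435 CPM and a log2 fold change of 1.79 ± 0.50. HAND1 was weakly read, and it reached 17.4 CPM in the middle pools against at most 4.43 CPM in high pools. The lower ones were TFAP2C and the steroid enzyme HSD3B1, the latter at 21.9 to 162 CPM in high pools and 47.0 to 517 CPM in low pools, a log2 fold change of -1.57 ± 0.46 (edgeR adjusted p = 0.588). Interferon tau, the signal of ruminant trophectoderm for maternal recognition of pregnancy, was uneven among pools, its genes summing to 7.21 to 264 CPM in high pools and 25.9 to 589 CPM in low pools, with medians of 30.4 and 91.7 CPM.

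Stress response genes were the list with most members of low p, 7 of 17 tested on the lower side and 0 on the higher. None passed adjustment, 14 of 17 log2 fold changes were below 0, and their median was -0.28, where 49.3% of all genes were above 0. MDM2, the ligase that restrains p53, ran from 19.3 to 62.0 CPM in high pools and from 41.6 to 226 CPM in low pools, a log2 fold change of -0.93 ± 0.27 that became -0.55 without low pool 1. GADD45A, also induced by p53, had medians of 43.0 and 57.1 CPM and a log2 fold change of -0.63 ± 0.18. The autophagy receptor SQSTM1 was at -0.28 ± 0.08, the chaperones HSPA1A and DNAJB1 at -0.82 ± 0.32 and -0.90 ± 0.31, and the stress factors DDIT3 and ATF3 at -0.55 ± 0.22 and -0.48 ± 0.22. HSPA5, the chaperone of the endoplasmic reticulum and the member of highest CPM, was at -0.11 ± 0.12, with medians of 1065 and 1158 CPM.

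Other measures moved beside these gene groups. Leukocyte markers, of which 14 of 22 were tested, had 4 on the lower side at an unadjusted p up to 0.05 and 13 of 14 log2 fold changes below 0, with a median of -0.46. They summed to 223 to 555 CPM in high pools and 371 to 593 CPM in low pools, mostly CD48, and none of the 22 had a median of 0. The part of the leukocyte markers in the values was not tested. The 5 genes of the Y chromosome summed to under 2 CPM in 2 high, 3 middle and 4 low pools and every other pool had at least 18.9 CPM. With the Y-linked sum as a covariate, edgeR called 0 genes, 670 genes had an unadjusted p up to 0.05 in place of 833, and the log2 fold change of CRIP1 was 0.60 in place of 0.81. With the interferon tau sum as a covariate it again called 0, with 713 genes at that p, and S100A11 was at -0.74 in place of -1.23.

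ABHD4 (chr10:22200345-22212614), a lipid hydrolase that acts on N-acyl phospholipids, had the smallest p of all genes. In high pools, from the highest score to the lowest, it was at 21.0, 15.2, 15.6, 23.0, 17.6, 11.6, 25.7, 14.1 and 21.8 CPM. In low pools, in the same order, it was at 28.8, 44.0, 34.4, 56.6, 16.0, 32.6, 37.1, 51.0 and 45.9 CPM. All low pools but pool 1, at 16.0 CPM, lay above every high pool. The log2 fold change was -1.06 ± 0.20 and did not pass adjustment in edgeR (adjusted p = 0.433), but did in DESeq2 (adjusted p = 0.00535) and in edgeR without pool 1 (-1.16, adjusted p = 0.0171). Over all alternatives the adjusted p ran from 0.000243 to 1.00.

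The value of ABHD4 depended on which marker ranked the pools. Where pools were chosen by SOX17 and PDGFRA, ABHD4 was lower in high pools by a log2 fold change of -1.22 ± 0.14 (edgeR adjusted p = 0.000243), with 14.1 to 28.8 CPM in the high and 32.6 to 56.6 CPM in the low pools and no overlap. By PDGFRA alone, a grouping added after the values were seen, the log2 fold change was -1.24 ± 0.16 (edgeR adjusted p = 0.000887). By GATA4 and SOX17 it was 0.02 ± 0.31 (adjusted p = 0.997), and by GATA4 alone, also added later, -0.25 ± 0.33 (adjusted p = 0.918). ABHD4 was the 1 gene called in each of the groupings by SOX17 and PDGFRA and by PDGFRA alone, 0.00812% of the genes tested. Other genes of small p also moved with the ranking: with pools by GATA4 and SOX17, FOLR1 was at -0.00 and SNX6 at 0.04, and of the 10 genes of smallest p in both directions together, 7 kept their sign in every fit, the exceptions being ABHD4, FOLR1 and LOC132346534 in that grouping. These groupings share pools and are not independent of each other, and the difference between them was not tested.

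**Figure D4:**
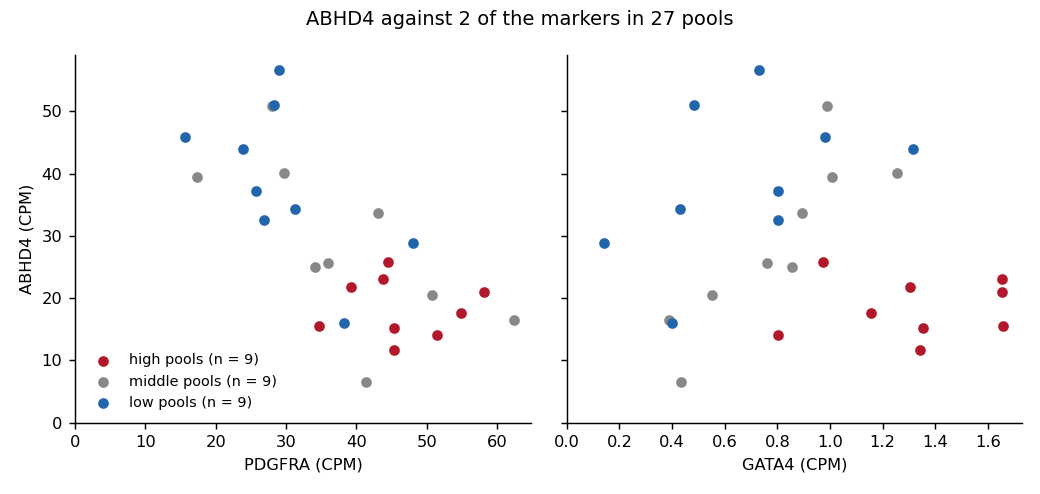
ABHD4 (y axis, CPM) against PDGFRA (left, CPM) and GATA4 (right, CPM) in the 27 pools, each point a pool coloured by its group. On the left ABHD4 is mostly high where PDGFRA is low, with low pool 1 (38.2 CPM of PDGFRA, 16.0 CPM of ABHD4) and middle pool 15 (41.3 CPM of PDGFRA, 6.58 CPM of ABHD4) among the lowest, and on the right the points show no such order.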

How the data were processed

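Libraries from pools of 2 blastocysts were prepared by the authors with a SMART-Seq v4 3' kit from 250 pg of RNA, with 500 pg of cDNA in tagmentation. Per the labels and the study's methods, read 1 was trimmed with fastp, aligned with STAR to ARS-UCD2.0 and assigned to genes with featureCounts, and the deposited values are raw counts per gene. Tool versions and the annotation release are not given in the sources used here. A 3' kit reads the end of a transcript, so genes with an unannotated end can be missed.

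The 9 high and 9 low pools were compared with edgeR 4.0.16 (R 4.3.3, TMM, quasi-likelihood test, Benjamini-Hochberg) over 12309 of 32637 genes, namely those reaching 1 CPM or more in 12 of 27 pools, the markers left out. Of the 3 markers PDGFRA alone passed that filter, so GATA4 and SOX17 were kept in for the tests of a left-out marker. DESeq2 1.42.0 and limma 3.58.1 (log2(CPM + 1)) were alternatives, as were other scalings, filters, group sizes, scores, covariates and leaving out each pool. TMM factors were 0.909 to 1.06. Fold changes are high over low. The fitting procedure was tested on simulated data with changes larger than those of nearly all genes here. That test does not show whether changes of the size seen here would be found. Total counts were compared by an exact permutation test (scipy 1.17.1). The pools, markers and gene lists were chosen with earlier results of these data known.

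Genes named were the 3 markers, the 5 of smallest p in each direction, up to 3 members of highest CPM of each list, and GATA6, NANOG, SOX2, POU5F1, CDX2, GATA3, FGF4 and FGFR2. Gene positions are from RefSeq for ARS-UCD2.0, which matched 12279 of the 12310 genes passing the filter. Reads of near-identical copies, such as the interferon tau genes, can be split between them.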

Additional observations from a re-analysis of the deposited data

Results flagged for a closer look

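In 24 of 206 groups of 9 pools, the highest or lowest pool stood apart from the rest by Dixon's ratio, where chance would give about 1 in 20 groups if values were normally distributed. Many of these CPM values are skewed or at 0, and the chance rate for them was not measured. Low pool 9 had 4 of them, with GATA6 at 19.5 CPM (next lowest 169 CPM), FGFR3 at 6.54 CPM, SMAD4 at 24.3 CPM and an interferon tau sum of 589 CPM. Low pool 21 also had 4, with ATF4 at 435 CPM, ATF3 at 36.1 CPM, the Y-linked EIF1AY at 65.0 CPM and the mitochondrial ND1 at 3022 CPM. Without pool 21, the log2 fold change of ND1 was -0.18 in place of -0.42 and that of ATF3 -0.29 in place of -0.48. Low pool 1 had MDM2 at 226 CPM against 80.6 CPM in the next pool.

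High pool 31 had CDX2 at 9.42 CPM, COL18A1 at 19.4 CPM and SMAD4 at 22.0 CPM. High pool 25 had FGF4 at 0.871 CPM, CD52 at 42.3 CPM and ITGB2 at 8.19 CPM. High pool 14 had COX2 of the mitochondrial genome at 6047 CPM and an interferon tau sum of 264 CPM, and high pool 13 had RSPO3 at 47.7 CPM. The other low pools that stood apart were pool 38, with KIT at 108 CPM and GRB2 at 134 CPM, pool 42, with SPRY2 at 23.3 CPM, pool 46, with COL18A1 at 5.71 CPM, pool 41, with HAND1 at 1.46 CPM, and pool 23, with SOX17 at 0.226 CPM.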

How the results depend on the processing

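The count of genes called higher was 0 in edgeR and under all 37 alternatives. The count called lower was 0, and was 1, in each case ABHD4, with pools chosen by SOX17 and PDGFRA, with pools by PDGFRA alone (added after the data were seen) and with DESeq2, and it ranged from 0 to 1 when each of 18 pools was left out in turn, being 1 without low pool 1. The difference in total count was -464499 counts, and on the log2 scale it was 0.00937 (exact permutation p = 0.974). Left-out markers kept their sign and stayed above an adjusted p of 0.05 under other scalings. Of 3538 values recomputed for 96 named genes, 3301 kept their sign and 237 did not. The count of genes at an unadjusted p up to 0.05 was 833. It was 3161 of 23917 with no filter, 289 with a pseudocount of 0.1 in the score, 371 with each marker standardized before averaging and 1314 with pools by PDGFRA alone. The membership of the groups was itself sensitive: with that pseudocount of 0.1, 7 of 9 high and 6 of 9 low pools were shared with the main choice, and ABHD4 was at -0.48 there. No paired analysis was possible because the labels give all pools 1 group and no shared replicate numbers. Depth limited GATA4 and SOX17 most, with medians of 20 and 0 counts per pool.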

Other observations

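Several gene groups outside the lineages were also read in the high and low pools, and none of their members passed adjustment in edgeR. Of 17 mitosis genes tested, 2 were higher and 0 lower at an unadjusted p up to 0.05, MKI67 with medians of 33.5 and 24.9 CPM and the helicase subunit MCM5 with 15.1 and 9.32 CPM, while PCNA, CCNB1 and AURKA had log2 fold changes of 0.01 ± 0.10, -0.06 ± 0.11 and -0.06 ± 0.12. Of 9 WNT genes tested, none reached that p. RSPO3, an enhancer of WNT signalling, was at 0.65 ± 0.43, and at 0.06 without high pool 13, and the WNT target AXIN2 was at 0.09 ± 0.28. Of 5 mesenchyme genes tested, smooth muscle actin ACTA2 was at 67.0 to 204 CPM in high pools and 160.0 to 704 CPM in low pools, a log2 fold change of -1.03 ± 0.25 (edgeR adjusted p = 0.490), and VIM was at 0.06 ± 0.25.

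Oocyte transcripts had 12 of 14 log2 fold changes below 0 and a median of -0.34, but none at an unadjusted p up to 0.05. Medians ran the other way, at 30.6 and 30.2 CPM for BTG4 (log2 fold change -0.51 ± 0.52) and 20.8 and 18.9 CPM for ZP3 (-0.27 ± 0.28). The list sum also had the higher median in high pools, 433 CPM against 390 CPM in low pools. Low pools 1, 21 and 38, at 789, 646 and 611 CPM, lay above every high pool, the highest of which was at 532 CPM. Of 5 cumulus and granulosa markers tested none reached that p, and the list summed to 11.8 to 40.1 CPM in high pools and 17.9 to 46.7 CPM in low pools. The 13 protein-coding genes of the mitochondrial genome had 12 log2 fold changes below 0 and a median of -0.12, with 1 lower at an unadjusted p up to 0.05, ND1, and summed to 41002 to 49366 CPM in high pools and 45252 to 56078 CPM in low pools. XIST, which silences an X chromosome in females, had medians of 8.27 and 18.05 CPM and a log2 fold change of -0.75 ± 0.63. The 5 Y-linked genes had a median log2 fold change of 0.27, with EIF1AY at -2.46 ± 1.16, and at -1.24 without low pool 21.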
